A study of Mus musculus with 94 samples.

Results

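The 34 genes described here make cholesterol and fatty acids or regulate their synthesis. They were taken from a list of names that was chosen with earlier results of these data known. Of these, 33 had a probe set that named that gene alone and were read at the brightest such probe set, out of 18194 genes with such a probe set on the array. Acat2, the cytosolic thiolase at the entry to the pathway, had none, so its expression was not analysed here. By role the measured members were 18 enzymes of sterol and isoprenoid synthesis, 6 genes that regulate the pathway and 9 enzymes of fatty acid synthesis and desaturation.

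RNA came from the right hemisphere of the brain of male C57BL6 mice aged 11 weeks, either wild type (wt) or lacking the DNA repair protein O6-methylguanine methyltransferase in all cells (Mgmt-/-). Each mouse received an injection of methylazoxymethanol (MAM), which methylates DNA, or of vehicle alone, and was killed 6, 24, 48 or 168 hr later. The 16 groups of genotype, agent and time held 6 animals each, except 5 in wt vehicle at 48 hr, wt MAM at 168 hr and Mgmt-/- MAM at 168 hr. Every animal was hybridized to an array of its own, and the number of arrays per group limits the precision. Arrays are named as labelled, by genotype, agent, hr and animal number. The array MGMT.MAM.168.343 was left out because it held liver RNA. Its mean over 10 liver genes was 13.56 log2 units against at most 7.03 on the other 93 arrays, and its mean over 8 neuronal genes was 4.99 against at least 11.54. The probe set for Mgmt lay between 5.49 and 6.21 in wt and between 5.09 and 6.45 in Mgmt-/- brain, so it did not check the genotype labels. Animal numbers fell into 2 sets per genotype, which stood in for the 2 laboratories of the study and which the labels do not name as such.

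The sterol branch joins acetyl units into mevalonate, then into isoprenoids and squalene, and closes and trims the squalene into cholesterol. Cells sense sterol in the endoplasmic reticulum. When it is scarce, the escort protein Scap carries the membrane-bound factors SREBP-1 and SREBP-2 (genes Srebf1 and Srebf2) to the Golgi, where they are cut free to switch on the enzymes, and the Insig proteins hold them back when sterol is plentiful. The brain makes its own cholesterol behind the blood-brain barrier, and oligodendrocytes use much of it for myelin.

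Sequences upstream of the members are shown first. Of the 34 genes, 27 had an entry in the RefSeq promoter table (build GRCm38.p6), each running from 250 bases before to 50 bases after the start site. The letters CCAAT, the motif of the factor NF-Y that often stands beside SREBP sites, were found on either strand in 22 of these 27 genes, and in 37.4% of all 32851 promoters of this length. The letters CACNCCAC, a core of the sterol regulatory element, were found in 3 of the 27 (Hmgcs1, Insig1 and Acat2) and in 6.24% of all promoters. The E-box CACGTG was found in 5 of the 27 (Dhcr7, Hsd17b7, Insig1, Sc5d and Scap) and in 7.15% of all promoters. These matches describe the letters in this window only. Members are counted by gene and all promoters by entry, so the shares have unlike units. Whether the matches bear on how the sterol enzymes varied together, as given further on, was not tested. The promoters below are those of the 5 sterol enzymes that fell after MAM and of Insig1, which differed between genotypes. They run 5′ to 3′ along the gene, and capitals mark CCAAT and CACNCCAC on either strand, which did not overlap each other.
Hmgcs1 (chr13:119690101-119690400, plus strand): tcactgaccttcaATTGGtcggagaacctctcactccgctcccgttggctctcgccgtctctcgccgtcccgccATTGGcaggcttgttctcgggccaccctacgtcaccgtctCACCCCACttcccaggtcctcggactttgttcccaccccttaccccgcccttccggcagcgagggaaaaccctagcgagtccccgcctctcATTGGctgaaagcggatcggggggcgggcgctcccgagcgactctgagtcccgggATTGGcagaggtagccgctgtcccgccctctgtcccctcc
Mvd (chr8:122443373-122443672, minus strand): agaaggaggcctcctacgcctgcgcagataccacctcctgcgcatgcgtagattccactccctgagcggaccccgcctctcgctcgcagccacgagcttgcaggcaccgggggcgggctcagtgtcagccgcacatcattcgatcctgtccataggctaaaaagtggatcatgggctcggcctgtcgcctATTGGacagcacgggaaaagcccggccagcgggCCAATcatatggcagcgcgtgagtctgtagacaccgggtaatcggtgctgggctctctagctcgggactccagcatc
Idi1 (chr13:8885356-8885655, plus strand): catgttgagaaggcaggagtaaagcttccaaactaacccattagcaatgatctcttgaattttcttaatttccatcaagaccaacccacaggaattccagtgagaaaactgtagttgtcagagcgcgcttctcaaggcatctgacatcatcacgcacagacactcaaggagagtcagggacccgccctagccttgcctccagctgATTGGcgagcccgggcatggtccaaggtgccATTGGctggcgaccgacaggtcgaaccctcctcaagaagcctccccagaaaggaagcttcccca
Cyp51 (chr5:4104648-4104947, minus strand): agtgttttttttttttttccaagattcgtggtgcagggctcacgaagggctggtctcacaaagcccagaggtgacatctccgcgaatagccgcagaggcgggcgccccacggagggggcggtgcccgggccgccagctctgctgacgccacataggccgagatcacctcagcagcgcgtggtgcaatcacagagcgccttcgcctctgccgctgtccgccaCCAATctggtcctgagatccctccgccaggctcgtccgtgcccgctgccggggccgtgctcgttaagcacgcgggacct
Msmo1 (chr8:64733529-64733828, minus strand): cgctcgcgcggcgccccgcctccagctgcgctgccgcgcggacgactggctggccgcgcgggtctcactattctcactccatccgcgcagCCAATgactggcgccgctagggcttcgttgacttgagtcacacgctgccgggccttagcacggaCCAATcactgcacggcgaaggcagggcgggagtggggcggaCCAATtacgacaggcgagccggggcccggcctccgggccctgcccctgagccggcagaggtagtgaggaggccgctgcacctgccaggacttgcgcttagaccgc
Insig1 (chr5:28071162-28071461, plus strand): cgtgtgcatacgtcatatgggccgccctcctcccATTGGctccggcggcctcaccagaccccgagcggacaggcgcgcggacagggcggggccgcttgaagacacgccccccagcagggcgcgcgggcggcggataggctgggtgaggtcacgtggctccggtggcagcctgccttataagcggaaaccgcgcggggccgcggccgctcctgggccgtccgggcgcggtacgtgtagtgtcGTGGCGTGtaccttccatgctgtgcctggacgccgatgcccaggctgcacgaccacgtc
Hmgcs1 held 4 matches to CCAAT and 1 to CACNCCAC. Msmo1 held 3 matches to CCAAT, Mvd and Idi1 held 2 each, and Cyp51 and Insig1 held 1 each. Insig1 also held 1 match to CACNCCAC, next to its start site.

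The question put first was which members changed after MAM in each genotype. In Mgmt-/- brain 168 hr after MAM, 6 of 33 members were lower than after vehicle and none was higher, with calls made where the adjusted p was under 0.05 and the change exceeded 1.3-fold. They were Hmgcs1, Mvd, Idi1, Cyp51 and Msmo1 of the sterol branch and the desaturase Fads1. Among all 18194 genes, 0.33% were called lower and 0.286% higher in this comparison. Altogether 29 of 33 members were below 0, with a median difference of -0.24 log2 units, whereas 52.3% of all genes were below 0 with a median of -0.01. The deposited values are on the log2 scale, so a difference of -0.24 is that many log2 units and not a fold.

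Hmgcs1 makes the precursor of mevalonate from acetyl units. Its levels in the Mgmt-/- MAM animals at 168 hr were 11.38, 11.41, 11.30, 11.44 and 11.18, against a lowest of 11.64, a median of 11.70 and a highest of 11.94 in the vehicle animals. Every MAM animal was thus below every vehicle animal, with a difference of -0.39 ± 0.09 (SE; adjusted p = 0.0313, limma). Mvd removes a carboxyl group to form isopentenyl diphosphate. Its levels were 6.92, 6.61, 6.65, 7.04 and 6.89 after MAM, against 7.08, 7.20 and 7.41 (lowest, median, highest) after vehicle, a difference of -0.40 ± 0.08 with no overlap (adjusted p = 0.0257). With single arrays left out, only the calls of Hmgcs1 and Mvd among the 6 were lost. That of Hmgcs1 was lost without MGMT.VEH.168.323, MGMT.VEH.168.919, MGMT.VEH.168.923, MGMT.MAM.168.345, MGMT.MAM.168.967 or MGMT.MAM.168.971, each left out alone (-0.41 to -0.35). That of Mvd was lost without MGMT.VEH.168.919, MGMT.VEH.168.923, MGMT.MAM.168.347 or MGMT.MAM.168.967 (-0.39 to -0.34).

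Idi1 interconverts the building blocks of isoprenoids. It measured 8.24, 8.31, 8.13, 8.57 and 7.92 after MAM, against 8.61, 8.72 and 8.92 after vehicle. The groups did not overlap, and the difference was -0.49 ± 0.09 (adjusted p = 0.0117). With all 93 arrays in 1 limma fit the call of Idi1 was lost (-0.48, adjusted p = 0.201), as was that of Hmgcs1 (-0.39, adjusted p = 0.21). Cyp51 demethylates lanosterol, the first ring sterol. It measured 7.82, 7.94, 7.90, 8.08 and 7.65 after MAM, against 8.04, 8.40 and 8.48 after vehicle. Here the groups overlapped by a single pair of animals, with a difference of -0.46 ± 0.08 (adjusted p = 0.00638).

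Msmo1, which removes the remaining methyl groups from the sterol ring, showed the lowest adjusted p of the members. It measured 9.53, 9.66, 9.55, 9.87 and 9.56 after MAM, against 9.96, 10.21 and 10.34 after vehicle. The MAM group lay wholly below the vehicle group, with a difference of -0.55 ± 0.07 (adjusted p = 0.000171). By number set it was -0.45 (set 1) and -0.64 (set 2). The second probe set for Msmo1 was dim, with a mean of 3.71 against 10.16, and did not show this difference (0.01, adjusted p = 0.975). Fads1, which introduces a double bond into long polyunsaturated fatty acids, measured 9.97, 10.05, 10.08, 10.15 and 10.001 after MAM, against 10.40, 10.45 and 10.54 after vehicle. Its groups did not overlap either, and its difference was -0.41 ± 0.06 (adjusted p = 0.00161). The laboratory filter of the study, which drops probe sets whose differences varied between the number sets and which the other 5 passed, removed Fads1. With array weights Fads1 was at -0.36 and Hmgcs1 at -0.32 (adjusted p = 0.0239), both under the fold. The second probe set of Fads1, also dim (mean 5.15 against 10.31), gave -0.22 (adjusted p = 0.485). At the second probe set Hmgcs1 was at -0.35 (adjusted p = 0.0358), Idi1 at -0.77 (adjusted p = 0.13), Cyp51 at -0.60 (adjusted p = 0.131) and Mvd at -0.24 (adjusted p = 0.469). Of the 24 members with a second probe set, 1 was called at it, Sc5d (-0.44 ± 0.10, adjusted p = 0.0307), named after its value was seen.

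**Figure D1:**
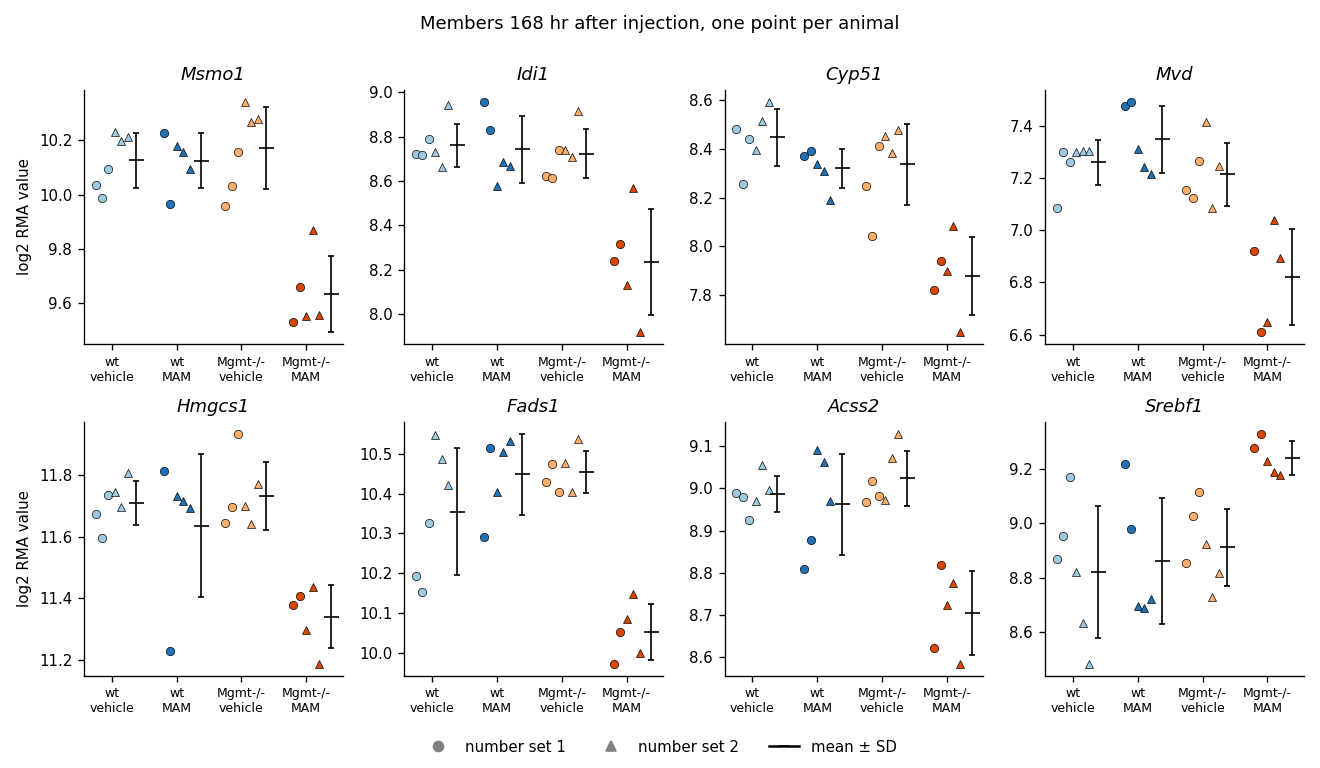
Levels of 8 members in every animal 168 hr after injection, in log2 RMA units, by genotype and agent, with the mean ± SD beside each group and the number set as the symbol. In Mgmt-/- brain after MAM, Msmo1, Idi1, Mvd, Hmgcs1, Fads1 and Acss2 lie wholly below and Srebf1 wholly above the vehicle animals of that genotype, while Cyp51 overlaps.

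The other sterol enzymes lay mostly below 0 as well. Of the 18, 17 were below 0 with a median of -0.29, and 12 had an unadjusted p under 0.05, all of them lower. The share of all genes at an unadjusted p under 0.05 was not computed, here or for the other counts by that rule. Nsdhl, which acts next to Msmo1 in removing sterol methyl groups, passed the false discovery rate without the fold (-0.30 ± 0.07, adjusted p = 0.0469). Sqle, the oxygenase that acts on squalene, was at -0.34 ± 0.09 (adjusted p = 0.0697). The isomerase Ebp was at -0.31 ± 0.08 (adjusted p = 0.0809) and the desaturase Sc5d at -0.31 ± 0.09 (adjusted p = 0.106). Fdps, which lengthens isoprenoids, was at -0.24 ± 0.07 (adjusted p = 0.14), with no overlap between the groups. The sterol enzyme above 0 was Mvk, mevalonate kinase, at 0.03 ± 0.12. Ggps1, Lss and Tm7sf2 lay between -0.07 and -0.06, and the remaining sterol enzymes Pmvk, Fdft1, Hsd17b7 and Dhcr7 between -0.29 and -0.12.

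The fatty acid enzymes showed the same sign in 8 of 9 cases, with a median of -0.17. Acss2, which turns acetate into acetyl-CoA, passed the false discovery rate without the fold (-0.33 ± 0.06, adjusted p = 0.00653). It measured 8.62, 8.82, 8.72, 8.78 and 8.58 after MAM, against 8.97, 9.0003 and 9.13 after vehicle, without overlap. The stearoyl-CoA desaturase Scd1 was at -0.27 ± 0.07 (adjusted p = 0.0813) and the elongase Elovl6 at -0.25 ± 0.07 (adjusted p = 0.117). Acly, Fasn and Scd2 lay between -0.17 and -0.12, Acaca was at -0.04 and the desaturase Fads2 at 0.02.

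Among the regulators, Srebf1 went the other way. Its levels were 9.28, 9.33, 9.23, 9.19 and 9.18 after MAM, against 8.73, 8.89 and 9.11 after vehicle. All MAM animals were above all vehicle animals, and the difference of 0.35 ± 0.08 passed the false discovery rate (adjusted p = 0.0345) but not the fold. Srebf2, the factor chiefly tied to sterol enzymes, was at -0.23 ± 0.10 (adjusted p = 0.364). Stard4, a sterol carrier, was at -0.32 ± 0.11 (adjusted p = 0.211). Insig1 was at -0.27 ± 0.15 and had opposite signs in the number sets (0.26 and -0.67), while Insig2 and Scap were at -0.01 and 0.03. By the false discovery rate alone, 8 members were lower and 1 was higher, against 0.55% and 0.374% of all genes. Groups did not overlap in 8 lower members and 1 higher member, against 0.879% and 0.665% of all genes.

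In wt brain at 168 hr, no member was called after MAM by limma or by the ordinary linear model, and limma called none of the 18194 genes (0%). Without adjustment, p was under 0.05 for 0 higher members and 1 lower member, Fdps (-0.16 ± 0.07). The median of the members was -0.02. Msmo1 was at -0.02 ± 0.07, with levels of 10.23, 9.97, 10.18, 10.16 and 10.09 after MAM against 9.99, 10.15 and 10.23 after vehicle, so the groups overlapped. The Hmgcs1 level of WT.MAM.168.145 was low (11.23 against 11.69 to 11.81 in the other 4).

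The MAM effect in Mgmt-/- minus that in wt was called at 168 hr for 2 members, Msmo1 (-0.54 ± 0.10, adjusted p = 0.0362) and Fads1 (-0.50 ± 0.09, adjusted p = 0.0308), against 0.0715% of all genes. Mvd was next, at -0.48 ± 0.12 (adjusted p = 0.178). With all 93 arrays in 1 limma fit the adjusted p of Msmo1 was 0.655. Of the 33 members 28 were below 0, with a median of -0.20, whereas 49.7% of all genes were below 0 with a median of 0.001. Leaving out a single array ended the call of Msmo1 for 17 of 22 arrays (differences of -0.58 to -0.48 over all 22), all but WT.MAM.168.145, MGMT.VEH.168.319, MGMT.VEH.168.321, MGMT.MAM.168.347 and MGMT.MAM.168.969. It ended that of Fads1 for 14 of 22 (-0.53 to -0.46), all but WT.MAM.168.143, WT.MAM.168.145, MGMT.VEH.168.323, MGMT.MAM.168.347, WT.VEH.168.719, WT.MAM.168.743, MGMT.VEH.168.921 and MGMT.MAM.168.969.

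**Figure D2:**
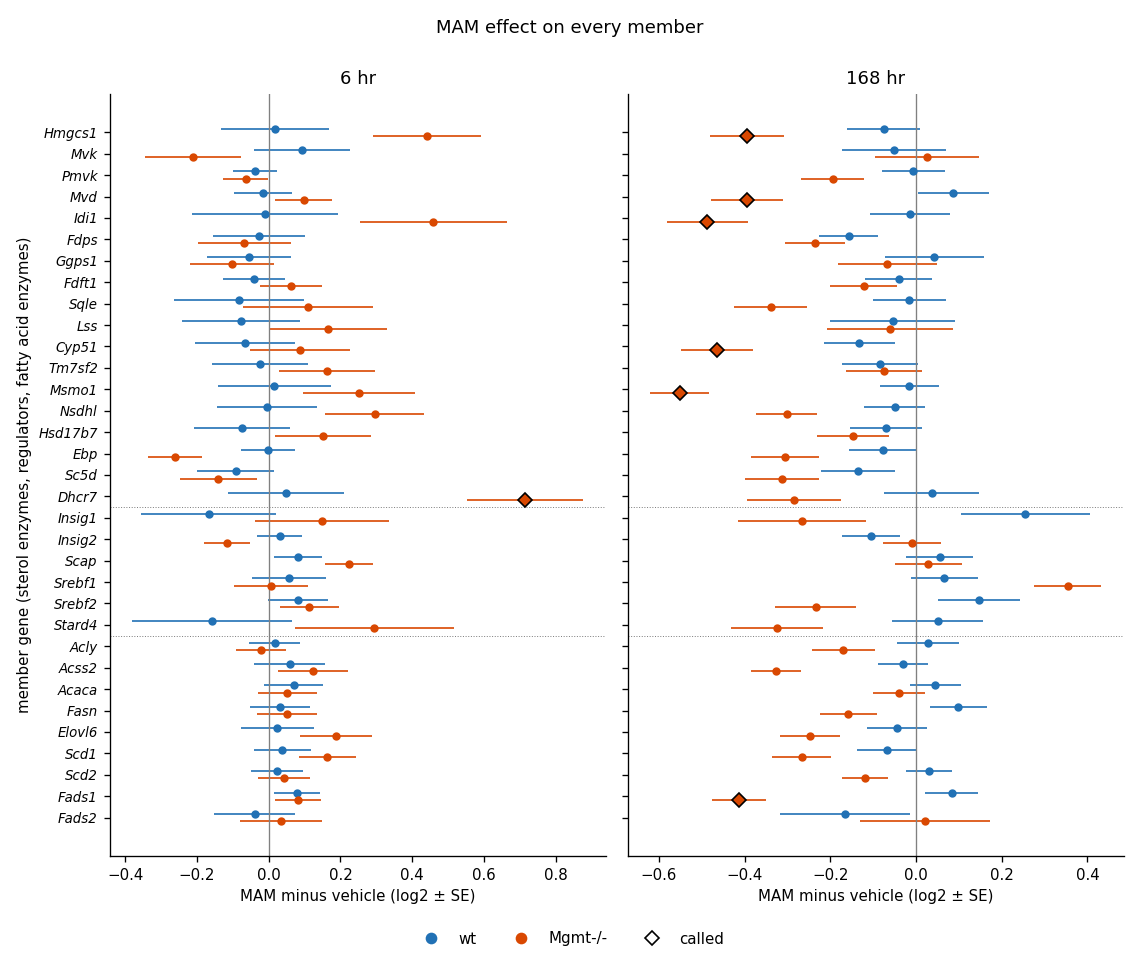
MAM minus vehicle for all 33 measured members at 6 and 168 hr, in log2 units with the standard error from limma, for wt and Mgmt-/- brain. Diamonds mark called members: Dhcr7 at 6 hr, and Hmgcs1, Mvd, Idi1, Cyp51, Msmo1 and Fads1 at 168 hr, all in Mgmt-/- brain.

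Other transcripts moved in the same animals at 168 hr. Of 12 glucocorticoid-induced genes, 6 were called higher and none lower, with a median of 0.62. Their mean per array ranged from 8.72 to 9.37 after MAM and from 8.24 to 8.36 after vehicle. Of 13 oligodendrocyte markers, 8 were below and 5 above 0, with a median of -0.12. The galactolipid enzyme Ugt8a (-0.79, adjusted p = 0.000139) and Opalin (-0.59, adjusted p = 0.00258) were called lower and none was called higher, while 5 were lower and 3 higher at an unadjusted p under 0.05. Their mean per array ranged from 9.79 to 10.08 after MAM and from 9.80 to 10.23 after vehicle, so the groups overlapped. Of 7 microglia markers none was called (3 lower and 0 higher at an unadjusted p under 0.05), with a median of -0.25. Their mean per array ranged from 7.19 to 7.48 after MAM and from 7.51 to 7.78 after vehicle, without overlap. Of 7 endothelial markers, 4 were below and 3 above 0, and 1 was called lower, the receptor Kdr (-0.45, adjusted p = 0.00631), while 4 were lower and 1 higher at an unadjusted p under 0.05. Their median was -0.31, and their mean per array ranged from 7.33 to 7.54 after MAM and from 7.42 to 7.55 after vehicle. Of 8 astrocyte markers, 5 were below and 3 above 0, and 1 was called lower, the water channel Aqp4 (-0.52, adjusted p = 0.00986), with means per array of 10.48 to 10.69 after MAM and 10.57 to 10.75 after vehicle. The part of these in the fall of the members was not tested. The difference between the 3′ and 5′ probe sets of the Gapdh and actin controls, a measure of RNA integrity, ranged from 0.47 to 0.55 after MAM and from 0.39 to 0.79 after vehicle, and the count of called members was 6 with it as a covariate. In a piece of tissue, fewer cells of a type and less RNA per cell cannot be told apart.

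The pathway around the members was read from 2 further lists. Of 23 measured genes of sterol uptake, transport, storage and efflux, none was called at 168 hr in Mgmt-/- brain (2 higher and 3 lower at an unadjusted p under 0.05), with a median of -0.02. Of 29 further fatty acid genes 1 was called, Fabp7, a fatty acid binding protein of radial glia and astrocytes, at -1.57 ± 0.23 (adjusted p = 0.00141). By number set it was -0.74 (set 1) and -2.20 (set 2).

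The times before 168 hr were fitted in the same way. At 6 hr in Mgmt-/- brain 1 of 33 was called, Dhcr7, the enzyme of the last reduction to cholesterol, against 0.61% of all genes higher and 0.621% lower. Its levels had a lowest of 8.57, a median of 8.66 and a highest of 8.85 after MAM, and of 7.03, 8.25 and 8.44 after vehicle, a difference of 0.71 ± 0.16 (adjusted p = 0.0167). The groups did not overlap, as was so with the same sign in 1.03% of all genes. The 3 vehicle animals of number set 1 (8.37, 8.44 and 8.25) were close to MGMT.VEH.6.901 (8.26), whereas MGMT.VEH.6.903 and MGMT.VEH.6.905 lay far below (7.51 and 7.03). Without these 2 arrays the difference was 0.35 (adjusted p = 0.0197), past the false discovery rate but under the fold. With the RNA integrity measure as a covariate it was 0.71 with an adjusted p of 0.489, and the laboratory filter of the study removed it. That measure ranged from 0.57 to 0.75 after MAM and from 0.42 to 0.46 after vehicle in these animals, without overlap. Hmgcs1 and Idi1 were at 0.44 ± 0.15 and 0.46 ± 0.20 at 6 hr (adjusted p = 0.139 and 0.292). Pltp, the phospholipid transfer protein, was called among the sterol handling genes (0.66 ± 0.14, adjusted p = 0.0126).

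MGMT.VEH.6.903 and MGMT.VEH.6.905 were low in most sterol enzymes. Their means over the 18 enzymes were 8.21 and 7.97, against 8.67 to 8.84 in the other 4 Mgmt-/- vehicle animals at 6 hr. Their means over 13 oligodendrocyte markers were also low, at 9.39 and 9.40 against 9.93 to 10.08, as were those over 7 microglia markers, at 6.67 and 6.53 against 7.58 to 7.86. Without them the median of all members after MAM at 6 hr was -0.05 instead of 0.10. What these arrays share beyond the values given was not tested.

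At 24 hr no member was called in Mgmt-/- brain, where 0.407% of all genes were (2 members higher and 3 lower at an unadjusted p under 0.05, and 0 by the ordinary linear model). The 3 with the smallest p were Pmvk, a kinase of the mevalonate route (-0.31 ± 0.07, adjusted p = 0.0298), Ebp (-0.27 ± 0.07, adjusted p = 0.0453) and Ggps1, which makes the lipid anchor of small GTPases (-0.33 ± 0.10, adjusted p = 0.149). The first pair passed the false discovery rate without the fold, against 0.715% of all genes that were lower by that rule. Hacd2, an enzyme of very long fatty acid elongation, was called lower among the further fatty acid genes (-0.50 ± 0.10, adjusted p = 0.0135). At 48 hr no member was called, where 0.28% of all genes were (0 higher and 1 lower at an unadjusted p under 0.05, and 0 by the ordinary linear model), and Ggps1 was again lowest (-0.27 ± 0.10, adjusted p = 0.341), before Ebp (-0.19 ± 0.10) and Cyp51 (-0.18 ± 0.10).

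In wt brain, limma and the ordinary linear model called no member at 6, 24 or 48 hr. Limma called none of the 18194 genes, and no member had an unadjusted p under 0.05 at these times. The medians were 0.00, -0.03 and 0.06. The smallest p at 24 hr was that of Stard4 (-0.33 ± 0.17, adjusted p = 0.868) and at 48 hr that of Lss, which closes the sterol rings (0.26 ± 0.14, adjusted p = 0.368). Differences between the genotypes in the MAM effect were not called for any member at these times by limma or by the ordinary linear model. Among all genes 0.011% were called at 6 hr, 0% at 24 hr and 0.588% at 48 hr. At an unadjusted p under 0.05, 1 member was higher and 1 lower at 6 hr, 0 and 3 at 24 hr, and 0 and 2 at 48 hr.

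**Figure D3:**
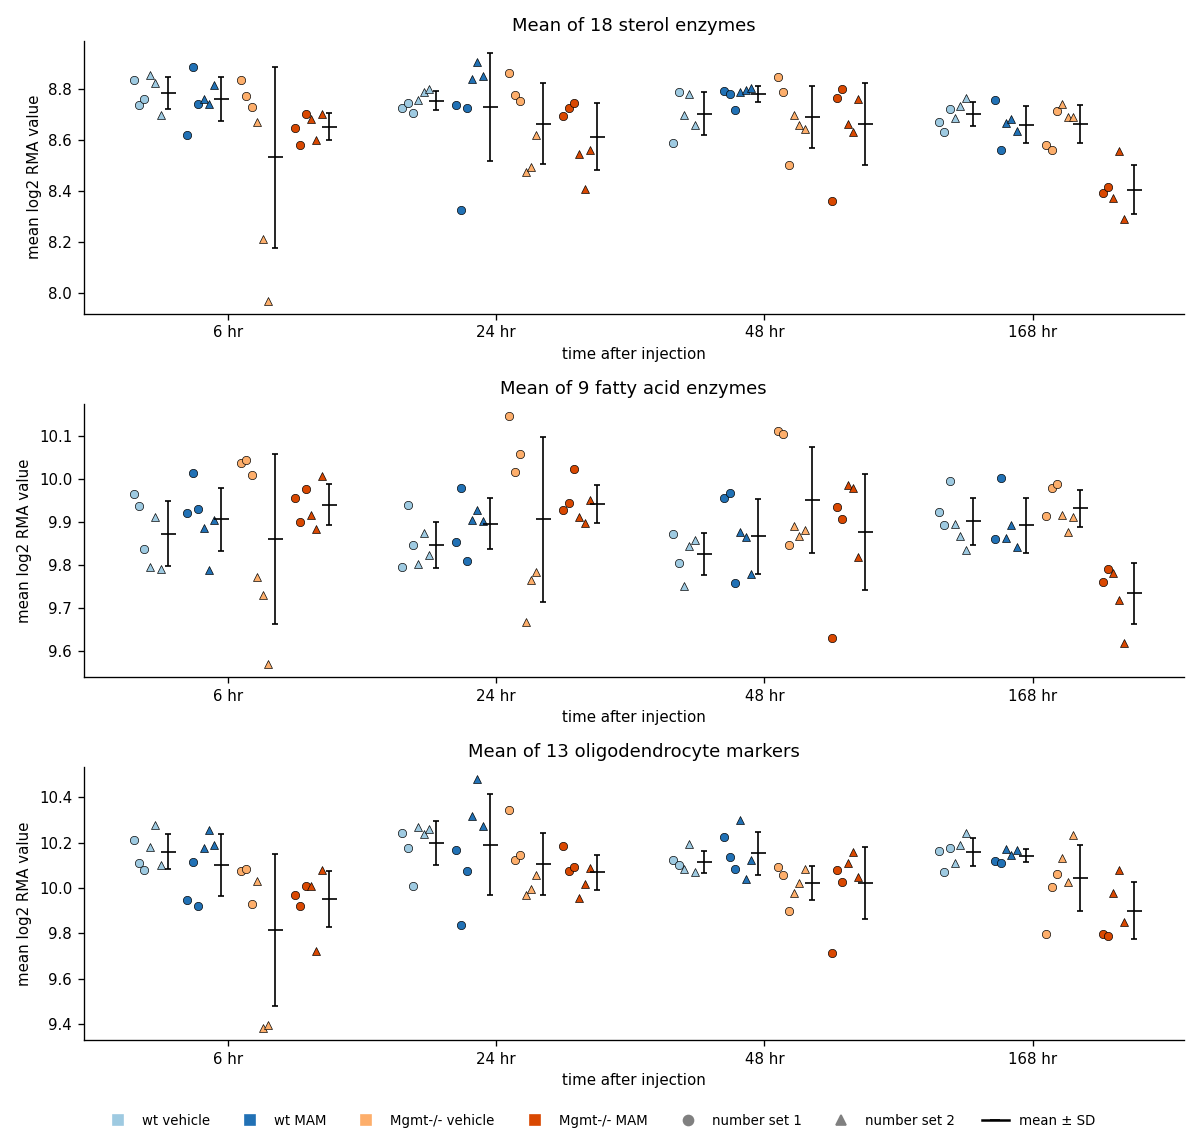
Mean log2 RMA value per array over the sterol enzymes, the fatty acid enzymes and the oligodendrocyte markers in all 16 groups, with the mean ± SD of each group. The sterol mean is lowest on 2 Mgmt-/- vehicle arrays at 6 hr (8.21 and 7.97), and in the Mgmt-/- MAM group at 168 hr it runs from 8.29 to 8.56 against 8.56 to 8.74 after vehicle.

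The second question was whether the genotypes differed without MAM. Insig1, which holds SREBP in the endoplasmic reticulum and is itself a target of it, was lower in Mgmt-/- than in wt vehicle brain at 6, 24 and 48 hr. The differences were -0.73 ± 0.19, -0.61 ± 0.17 and -0.56 ± 0.15 (adjusted p = 0.0184, 0.028 and 0.026), and -0.40 ± 0.14 at 168 hr (adjusted p = 0.226). At 6 hr its lowest, median and highest levels were 6.45, 7.60 and 7.74 in Mgmt-/- and 7.62, 8.11 and 8.42 in wt. At 24 hr they were 7.09, 7.51 and 7.77 against 7.70, 8.20 and 8.26, and at 48 hr 7.28, 7.40 and 7.69 against 7.65, 8.12 and 8.25. The ranges overlapped at all 4 times, by few animals at 24 and 48 hr. At 168 hr the 3 animals of number set 1 and the 3 of number set 2 stood apart within both genotypes, at 7.16 to 7.18 and 7.78 to 7.99 in Mgmt-/-, and at 7.45 to 7.65 and 8.28 to 8.33 in wt. Both number sets had a negative difference at each time. In the MAM groups the Insig1 means were 7.504, 7.37, 7.42 and 7.29 in Mgmt-/- and 7.92, 8.01, 8.11 and 8.21 in wt at 6, 24, 48 and 168 hr. Most calls of Insig1 turned on few arrays. At 6 hr the difference was -0.40 without MGMT.VEH.6.903 and MGMT.VEH.6.905 (adjusted p = 0.143), and the call was lost without WT.VEH.6.701 (-0.65) or WT.VEH.6.705 (-0.69). At 24 hr it was lost without WT.VEH.24.107, WT.VEH.24.707, WT.VEH.24.709, WT.VEH.24.711, MGMT.VEH.24.311 or MGMT.VEH.24.909, each left out alone (-0.60 to -0.53). At 48 hr it was lost without WT.VEH.48.115, WT.VEH.48.713, WT.VEH.48.715, MGMT.VEH.48.313, MGMT.VEH.48.315 or MGMT.VEH.48.915 (-0.55 to -0.49).

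Fads2, the desaturase that starts the synthesis of long polyunsaturated fatty acids and a neighbor of Fads1 on chromosome 19, was lower at 6 hr (-0.59 ± 0.11, adjusted p = 0.00184) and 24 hr (-0.56 ± 0.12, adjusted p = 0.00313). At 6 hr its lowest, median and highest levels were 8.12, 8.57 and 8.79 in Mgmt-/- and 8.84, 9.09 and 9.27 in wt, without overlap, which held with this sign in 2.17% of all genes. At 24 hr they were 8.14, 8.47 and 8.80 against 8.71, 9.07 and 9.27. The sets gave -0.28 (set 1, adjusted p = 0.276) and -0.89 (set 2) at 6 hr, and -0.21 (set 1, adjusted p = 0.568) and -0.90 (set 2) at 24 hr. The laboratory filter of the study removed Fads2 and Insig1 at both of these times and Sc5d at 6 hr, which ended their calls. With the RNA integrity measure as a covariate Fads2 was not called at either time (adjusted p = 0.0764 and 0.0882). At 24 hr the measure ranged from 0.43 to 0.53 in the Mgmt-/- and from 0.27 to 0.37 in the wt vehicle animals, without overlap. Fads2 was at -0.26 ± 0.12 at 48 hr and -0.41 ± 0.14 at 168 hr (adjusted p = 0.22 and 0.202), and at 168 hr the sets had opposite signs (-0.89 and 0.06). Sc5d was called lower at 6 hr (-0.44 ± 0.11, adjusted p = 0.0127), with levels of 8.46, 9.14 and 9.24 (lowest, median, highest) in Mgmt-/- and 9.15, 9.44 and 9.499 in wt. That call was lost without MGMT.VEH.6.903 (-0.38) or MGMT.VEH.6.905 (-0.35), and without both the difference was -0.23 (adjusted p = 0.11).

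**Figure D4:**
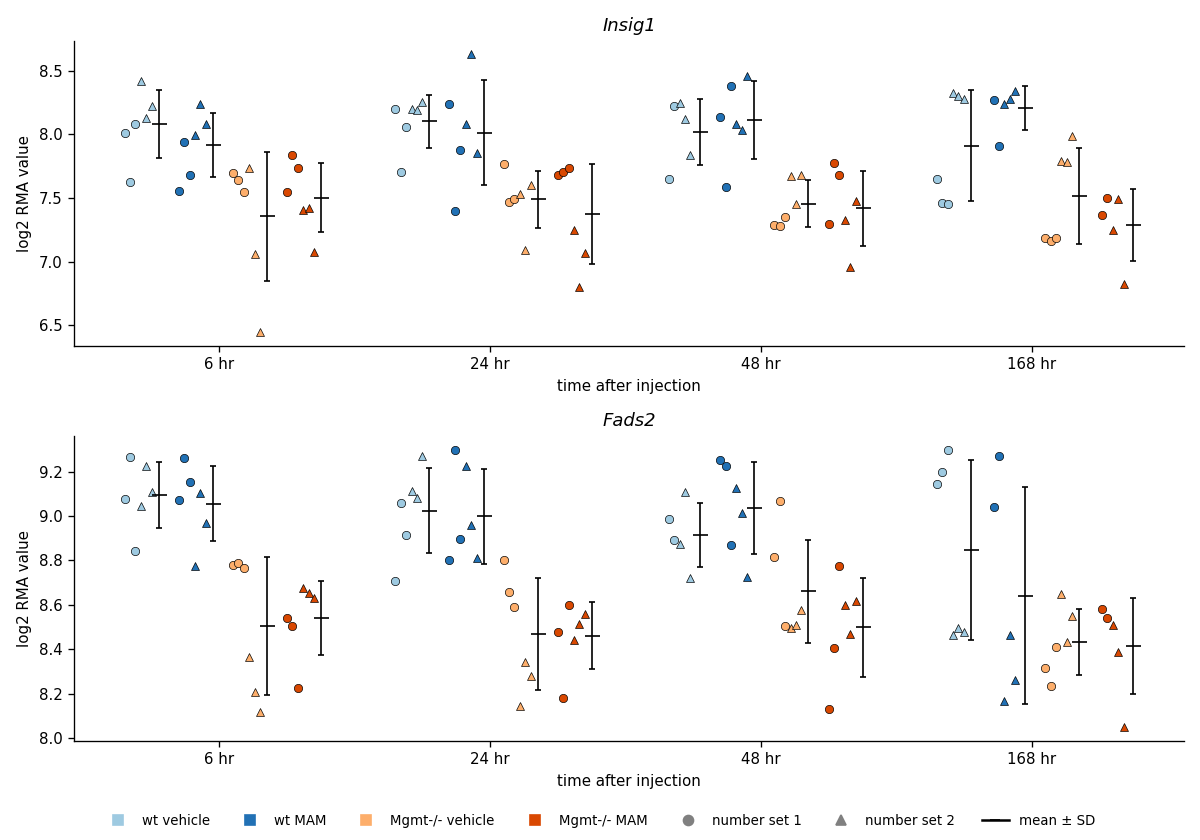
Levels of Insig1 and Fads2 in every animal of the 16 groups, in log2 RMA units, with the mean ± SD of each group and the number set as the symbol. Insig1 means are lower in each Mgmt-/- group (7.29 to 7.52) than in each wt group (7.91 to 8.21), and Fads2 splits by number set in wt brain at 168 hr.

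In all, 3 of 33 members were called lower between the vehicle groups at 6 hr, 2 at 24 hr, 1 at 48 hr and 0 at 168 hr, and none was called higher. Among all genes 2.15% were called lower at 6 hr, 2.65% at 24 hr, 1.46% at 48 hr and 0.187% at 168 hr. At 168 hr 3 members were higher and 5 lower at an unadjusted p under 0.05, and the ordinary linear model called 0. Of the 9 fatty acid enzymes 5 were above 0 at 6 hr, 6 at 24 hr, 7 at 48 hr and 7 at 168 hr. Their medians were 0.01, 0.15, 0.12 and 0.09. Among all genes 44.2%, 40.7%, 46.7% and 43.9% were below 0 at these times, with medians of 0.02, 0.04, 0.01 and 0.02. Of the 9 enzymes, 3 were higher by the false discovery rate but less than the fold at 1 time or more. Fasn, the fatty acid synthase, was at 0.28, 0.31 and 0.34 at 6, 24 and 48 hr (adjusted p = 0.0452, 0.0194 and 0.0345). Acaca, which makes the malonyl-CoA that Fasn uses, was at 0.27 and 0.30 at 6 and 24 hr (adjusted p = 0.0481 and 0.0171), and Elovl6 at 0.26 at 24 hr (adjusted p = 0.0108). The laboratory filter removed each of these values. By the false discovery rate alone, 2.96% of all genes were higher at 6 hr, 3.73% at 24 hr and 2.85% at 48 hr.

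At 6 hr 17 of 18 sterol enzymes were below 0, with a median of -0.25. Beside them 12 of 13 oligodendrocyte markers were below 0, with a median of -0.30, and Mog, Ermn and Cldn11 were called lower. Of all genes 44.2% were below 0, with a median of 0.02. All 7 microglia markers were below 0 as well, with a median of -0.19 and none called (0 higher and 2 lower at an unadjusted p under 0.05), and their mean per array ranged from 6.53 to 7.86 in Mgmt-/- and from 7.56 to 7.88 in wt. The median of all members was 0.06 within number set 1 and -0.36 within number set 2, and 0.05 without MGMT.VEH.6.903 and MGMT.VEH.6.905. The control difference between 3′ and 5′ probe sets was higher in the Mgmt-/- vehicle animals at 6 hr (0.42 to 0.46) than in the wt vehicle animals (0.27 to 0.34). With it as a covariate, Insig1 was called at 6 hr (-0.84, adjusted p = 0.0482), whereas Fads2 (-0.43, adjusted p = 0.0764) and Sc5d (-0.40, adjusted p = 0.103) were not. Among the further genes of the pathway, Hsd17b12, an enzyme of fatty acid elongation, was called lower at all 4 times (-0.79 to -0.54), and Acsl4, which activates arachidonic acid, at 6, 24 and 48 hr (-0.65 to -0.53). The elongase Elovl2 was called lower at 24 and 48 hr (-0.66 and -0.52) and Elovl4 at 24 hr (-0.51). The cholesterol exporter Abca1 was called higher at 6 hr (0.41 ± 0.12) and the lysosomal cholesterol transporter Npc1 at 48 hr (0.39 ± 0.11).

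Time itself was compared in the vehicle animals, each time against 24 hr. No member was called in either genotype by limma, and at most 0.0055% of all genes were called in any of these 6 comparisons. At an unadjusted p under 0.05, 0 to 2 members were higher and 0 to 1 lower, except 5 lower members in Mgmt-/- at 6 hr, the group that holds MGMT.VEH.6.903 and MGMT.VEH.6.905. The medians ranged from -0.09 to 0.03.

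The last question was how the members varied together. For each array the deviation from the mean of its group and number set was taken, and each member was set against the mean of the other sterol enzymes over 93 arrays. These correlations are descriptions, since the arrays share processing and tissue makeup. Pearson's r was 0.86 for Cyp51, 0.85 for Idi1, 0.83 for Hmgcs1, 0.83 for Sqle, 0.81 for Nsdhl and 0.80 for Msmo1. It was above 0.5 in 14 of the 18 sterol enzymes, and in 8.95% of all genes, whose median was 0.09. The sterol enzymes below this were Lss (0.38), Dhcr7 (0.36), Ggps1 (0.25) and Mvk (-0.26). For Cyp51 Spearman's rho was 0.78, and r was 0.81 without the 2 arrays farthest from the median. For Dhcr7 r was 0.09 without those 2 arrays.

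Taken gene by gene, regulators and fatty acid enzymes followed the sterol enzymes less, with a median r of 0.35 and 0.19 against 0.73. Among the regulators Stard4 (0.74) and Insig1 (0.64) came nearest, and Srebf1 (0.22), Srebf2 (0.18) and Scap (0.06) were far lower. Among the fatty acid enzymes Acss2 (0.73) and Elovl6 (0.57) came nearest, Scd1 was at 0.40, Fasn at 0.19 and Fads1 at -0.05. Srebf1 had an r of 0.69 in number set 1 and -0.28 in number set 2. Outside the list, the 8 genes most like the mean of the 18 sterol enzymes were Prrg1 (0.83), Pnp, Tmem98, Prr18, Serpinb1a, Evi2a, Zfp277 and Lztfl1 (0.79). The mean over the regulators had an r of 0.82 with the sterol mean, and that over the fatty acid enzymes 0.43. For the means of the other lists r was 0.87 for the further fatty acid genes and 0.75 for the oligodendrocyte markers. It was 0.69 for the sterol handling genes, 0.67 for the microglia markers and 0.51 for the endothelial markers. Lower values were those of choroid plexus markers (0.44), astrocyte markers (0.17), liver genes (0.04), neuronal genes (-0.30) and glucocorticoid-induced genes (-0.37).

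**Figure D5:**
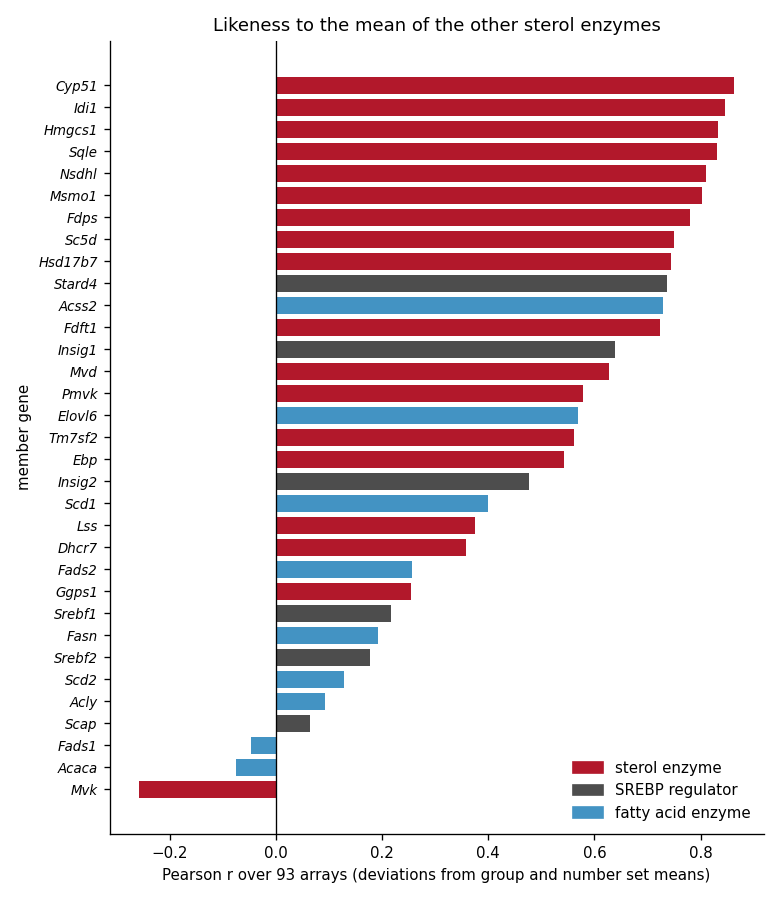
Pearson's r of each member with the mean of the other sterol enzymes, over the deviations of 93 arrays from their group and number set means, colored by role. Sterol enzymes run from 0.86 for Cyp51 to -0.26 for Mvk, and the fatty acid enzymes have a median of 0.19.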

How the data were processed

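Total brain RNA was hybridized to Affymetrix whole-genome mouse arrays. The deposited log2 values had been made by the authors with RMA in the affy package (version not given in the sources used here), that is background correction, quantile normalization and median polish, which sets the arrays to 1 distribution. The series matrix held 45101 probe sets on 94 arrays with no missing value, and array medians lay between 5.31 and 5.58. GEO's platform annotation named 1 gene for 34958 probe sets, several for 932 and the remaining probe sets were given no name.

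The members and gene lists were chosen with earlier results of these data known. Each time point was fitted over all probe sets in limma (version 3.58.1, under R 4.3.3, tables read by data.table, version 1.17.8) on 4 group means and the number set, and p-values were adjusted by Benjamini and Hochberg over all probe sets. Times were compared in a fit of 93 arrays. A member was called at an adjusted p under 0.05 with a fold above 1.3 (0.379 log2 units). Members called with the same sign in both number sets are given in full. Where none was called, those with the smallest p are named. Outside genes are named by the highest r. The laboratory filter of the study, which keeps probe sets with a laboratory interaction p above 0.15, left 9, 6, 27 and 21 of the 33 members at 6, 24, 48 and 168 hr and was an alternative here. The steps were tested on simulated data. Figures were drawn with matplotlib in Python. Labels name the animals as separate, and the p-values set differences between groups against the spread between animals.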

Additional observations from a re-analysis of the deposited data

Results flagged for a closer look

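A few values stood apart within their group, where the gap between the lowest animal and the next exceeded Dixon's critical share of the group's range. Of 74 sets of values examined, 4 did so, and chance marks about 5% of such sets. The sterol enzyme mean of WT.MAM.24.133 was 8.32, against 8.73 to 8.90 in the others (share of the range 0.692). That of WT.MAM.48.141 was 8.72, against 8.78 to 8.81 (0.728). Insig1 in WT.VEH.24.109 was 7.70, against 8.06 to 8.26 (0.642). Sc5d in WT.VEH.6.105 was 9.15, against 9.39 to 9.499 (0.679).

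The effect of MAM at 168 hr was called different between the genotypes by the interaction term for Msmo1 (-0.54) and Fads1 (-0.50). Leaving out 1 array ended these calls for 17 and 14 of 22 arrays. The array MGMT.MAM.168.343, used only in an alternative given below, had a sterol enzyme mean of 10.88, against 7.97 to 8.90 on the 93 brain arrays. Its fatty acid enzyme mean was 10.65 against 9.57 to 10.15, and its oligodendrocyte mean was 5.87 against at least 9.39.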

How the results depend on the processing

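Counts are of called members. In the 16 comparisons within a time point and the 6 over time, 194 counts under alternatives stayed within 1.5 times the reported count and 42 did not. In most of these comparisons the reported count was 0, and a 0 that stayed 0 is among the 194. These totals therefore do not give the share that held where members were called. After MAM in Mgmt-/- brain at 6 hr the count of 1 (Dhcr7) became 0 with the laboratory filter or with the RNA integrity measure as a covariate. It also became 0 without MGMT.VEH.6.903 and MGMT.VEH.6.905 (chosen after seeing the data), 8 in number set 2 alone and 2 with all 93 arrays in 1 fit. At the second brightest probe set it was 0 as well, but Dhcr7 had only 1 probe set, so its call could not be kept there. At 24 hr the count of 0 became 2 without the fold and 3 in number set 2 alone. At 168 hr the count of 6 became 1 at the second brightest probe set, 0 in number set 1 alone, which held 2 MAM animals, and 0 with the liver array MGMT.MAM.168.343 included. The members' median there lay between -0.25 and -0.19 under the alternatives, except 0.11 with that array. For Msmo1 the second probe set turned the sign (0.0127, and 0.0481 for the difference between genotypes), and including that array turned it for Mvd (0.0585), Idi1 (0.0521) and Cyp51 (0.0401). Cyclic loess moved the median of all probe sets by -0.005. With it the calls of Hmgcs1 (-0.376, adjusted p = 0.0367, under the fold) and Mvd (-0.368, adjusted p = 0.0546) at 168 hr were lost.

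Between the vehicle groups at 6 hr the count of 3 became 5 without the fold, 0 with the laboratory filter, 1 (higher) and 16 in number sets 1 and 2 alone, 1 with the RNA measure, 1 without MGMT.VEH.6.903 and MGMT.VEH.6.905, and 7 with all arrays in 1 fit. At 24 hr the count of 2 became 5 without the fold, 0 with the laboratory filter, 1 in the ordinary linear model, and 1 (higher) and 6 in number sets 1 and 2. At 48 hr the count of 1 became 2 without the fold and 0 in the ordinary linear model, in either number set, with the RNA measure or with all arrays in 1 fit. At 168 hr number set 1 alone gave 1. For the difference between genotypes at 168 hr, the count of 2 became 1 with the laboratory filter, in the ordinary linear model, with the RNA measure or with all arrays in 1 fit. It became 0 at the second brightest probe set, without the number set term, in either number set or with MGMT.MAM.168.343. At 48 hr array weights gave 1. Number set 2 alone gave 1 for wt at 168 against 24 hr and 7 for Mgmt-/- at 6 against 24 hr. Among the named genes, 54 calls were lost and 5 signs turned under these alternatives. The cause of these changes was not tested.

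With each array left out in turn, the count after MAM in Mgmt-/- brain was 1 to 1 at 6 hr, 0 to 1 at 24 hr (1 without MGMT.VEH.24.909), 0 to 0 at 48 hr and 4 to 7 at 168 hr (4 without MGMT.MAM.168.967, 7 without MGMT.MAM.168.969). Between the vehicle groups it was 2 to 4, 1 to 2, 0 to 2 and 0 to 0 at the 4 times (2 at 48 hr without MGMT.VEH.48.317, WT.VEH.48.717 or MGMT.VEH.48.917), and 0 to 2 for the difference between genotypes at 168 hr. The other counts stayed at 0. No paired analysis was possible because each animal number occurs once. The number of arrays per group limits what could be called, and among the called values Dhcr7 and Sc5d at 6 hr, Fads1 at 168 hr, and Insig1 and Fads2 at 6 and 24 hr failed the laboratory filter.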
